A study of Mus musculus with 10 samples.

Results

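Excitation-contraction coupling is the step by which an action potential on the muscle membrane releases calcium inside the fibre. The voltage sensor in the transverse tubule, the dihydropyridine receptor, touches the ryanodine receptor of the sarcoplasmic reticulum, and calcium leaves the store when the sensor moves. Junctophilins hold the membranes together, calsequestrins and triadin handle calcium at the store side, and parvalbumin binds the released calcium in fast fibres.

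Peaks of chromatin immunoprecipitation sequencing (ChIP-seq) were described here for 10 genes of this machinery, of 26180 curated RefSeq genes. They were Ryr1, which encodes the release channel, Cacna1s, Cacnb1 and Stac3, which encode the pore subunit, the beta subunit and an adaptor of the voltage sensor, Casq1, Casq2 and Trdn, which encode fast and slow calsequestrin and triadin, Jph1 and Jph2, which encode junctophilins, and Pvalb, which encodes parvalbumin. The genes were chosen by name, with earlier results of these data known. A peak was assigned to a gene when its midpoint lay in the gene body or within 30 kb of a transcription start site (TSS), and this region is called the window of the gene. The 10 windows covered 1230 kb and ranged from 60 kb at Casq1 and Stac3 to 423 kb at Trdn.

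The libraries came from skeletal muscle of C57BL/6J mice. The mice were either fed or kept without food for 24 h, and they were 10 weeks old per the labels, while the text of the study gives another age. No transgene or drug is named in the labels. Antibodies were against the glucocorticoid receptor (GR), a transcription factor switched on by glucocorticoids, against lysine-specific demethylase 1 (LSD1), which takes methyl groups off histones, and against histone H3 carrying 1 or 2 methyl groups at lysine 9 (H3K9me1 and H3K9me2). Each antibody and condition had 1 library, and an input library of each condition served as the control for peak calling. No difference between conditions could therefore be set against a spread between replicates, no p-value is given, and every statement describes these 8 lists. Nuclei of whole limb muscle were used, so a lower share of cells of a type and less signal per cell cannot be told apart. Sequencing depth is unknown for these libraries. The GR lists held 14108 peaks in the fed and 37783 in the starved library, 2.68 times as many, and the LSD1 lists 16616 and 66332, 3.99 times as many. The LSD1 starved list as deposited is far longer than the text of the study describes. It may be a different version, and every LSD1 starved value below rests on the deposited list.

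All 10 genes had GR and LSD1 peaks in fed and in starved muscle. In GR fed every member had a peak, against 43.1% of all genes. In GR starved it was again 10 of 10, against 66.5%, in LSD1 fed 10 of 10, against 51.1%, and in LSD1 starved 10 of 10, against 83.7%. A peak in both GR and both LSD1 lists was found at 10 of 10 members and at 34.4% of all genes. H3K9me1 fed peaks were found at 4 of 10 members (38% of all genes), H3K9me1 starved at 8 (65.6%), H3K9me2 fed at 9 (95.5%) and H3K9me2 starved at 1, Trdn (10.2%). For the H3K9 marks the share of members with a peak thus lay near that of all genes.

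Counted as density, the member windows held 2.92 GR fed peaks per 100 kb, against 0.819 over the windows of all genes. The density was 6.57 against 2.14 in GR starved, 3.89 against 0.995 in LSD1 fed and 4.3 against 2.89 in LSD1 starved. In the marks it was 0.73 against 0.614 in H3K9me1 fed, 1.46 against 1.57 in H3K9me1 starved, 9.08 against 7.73 in H3K9me2 fed and 0.162 against 0.203 in H3K9me2 starved. The GR and LSD1 densities were above the background in all 4 lists, with the smallest gap in LSD1 starved.

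**Figure D1:**
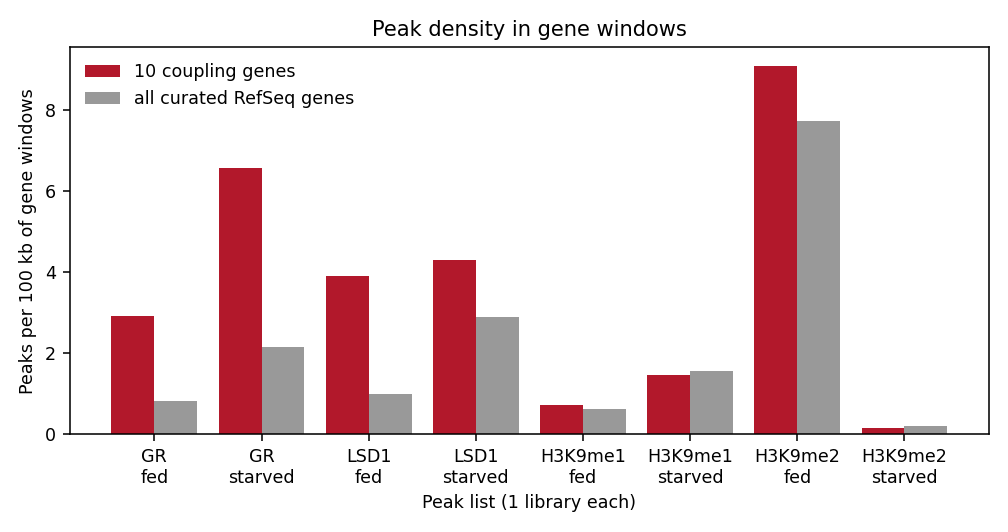
Peaks per 100 kb of gene windows (y axis) in each of the 8 peak lists (x axis, 1 library each), for the 10 coupling genes (red bars) and for all 26180 genes (grey bars). The red bars stand above the grey bars in the 4 GR and LSD1 lists, for example 2.92 against 0.819 in GR fed, and lie close to them for both H3K9 marks.

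Longer genes can collect more peaks, and the rule was therefore also applied without the gene body. Within 30 kb of a TSS alone, GR fed was found at 10 of 10 members (40.9% of all genes), GR starved at 10 (63.8%) and LSD1 fed at 10 (49.6%). LSD1 starved was left at 9 (81.3%), with Trdn the member that lost all of its peaks. H3K9me1 fed was left at 2 members (33.1%), H3K9me1 starved at 5 (61.3%), H3K9me2 fed at 9 (95%) and H3K9me2 starved at 0 (7.65%).

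The lists held many peaks of low confidence. The q-value is the authors' peak-level false discovery rate. With peaks of a q-value of 0.01 or less, GR fed was found at 9 members (33.6% of all genes) and GR starved at 8 (40.6%), while LSD1 was found at 9 in fed (32.4%) and at 5 in starved muscle (24%). Of the peaks in the member windows, 23 of 36 in GR fed, 26 of 81 in GR starved, 16 of 48 in LSD1 fed and 6 of 53 in LSD1 starved were that confident. This was 63.9%, 32.1%, 33.3% and 11.3%, against 70.4%, 34.7%, 45.5% and 10.2% of the whole lists. The marks at this threshold were found at 3 members for H3K9me1 in fed (18.5% of all genes) and 5 in starved muscle (40.5%), and at 9 (68.3%) and 0 (1.94%) for H3K9me2. With a stricter limit of 1e-05, GR was left at 4 members in fed (15.2% of all genes) and 4 in starved muscle (11.3%). LSD1 was then left at 0 members in both lists (1.86% in fed and 0.802% in starved muscle), H3K9me1 at 0 (0.661%) and 1 (2.11%), and H3K9me2 at 0 in both (1.68% and 0.386%).

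At 7 sites the member windows carried peaks of both GR lists and both LSD1 lists, and the sequences of 6 of them are shown because they are the member sites that each of the 4 lists called. In LSD1 starved only the Pvalb intron site had a q-value of 0.01 or less, 0.00808. At the other 6 of the 7 sites the LSD1 starved q-value lay between 0.016 and 0.0748. They are written on the plus strand of GRCm38 (mm10).
Ryr1 intron, 200 bases from the middle of the shared stretch, chr7:29123942-29124141: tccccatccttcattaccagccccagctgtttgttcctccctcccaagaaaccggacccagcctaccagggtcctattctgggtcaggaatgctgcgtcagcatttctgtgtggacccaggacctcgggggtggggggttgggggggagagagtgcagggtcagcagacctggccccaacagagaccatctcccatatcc
Casq1 intron, chr1:172217133-172217383: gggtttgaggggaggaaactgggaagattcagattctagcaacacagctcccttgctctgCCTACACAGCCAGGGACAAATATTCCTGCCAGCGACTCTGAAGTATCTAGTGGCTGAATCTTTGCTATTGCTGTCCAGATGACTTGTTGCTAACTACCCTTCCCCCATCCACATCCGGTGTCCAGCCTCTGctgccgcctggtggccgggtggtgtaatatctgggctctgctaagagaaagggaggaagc
Jph1 upstream, chr1:17120728-17120969: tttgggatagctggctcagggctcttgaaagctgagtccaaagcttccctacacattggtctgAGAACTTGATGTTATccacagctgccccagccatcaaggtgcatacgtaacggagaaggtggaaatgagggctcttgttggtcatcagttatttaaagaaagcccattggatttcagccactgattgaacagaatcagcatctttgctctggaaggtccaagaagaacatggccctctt
Pvalb intron, chr15:78195276-78195464: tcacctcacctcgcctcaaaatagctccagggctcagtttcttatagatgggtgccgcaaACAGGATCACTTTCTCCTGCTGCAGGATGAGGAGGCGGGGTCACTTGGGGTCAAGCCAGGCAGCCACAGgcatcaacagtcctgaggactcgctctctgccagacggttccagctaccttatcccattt
Pvalb promoter, chr15:78206424-78206588: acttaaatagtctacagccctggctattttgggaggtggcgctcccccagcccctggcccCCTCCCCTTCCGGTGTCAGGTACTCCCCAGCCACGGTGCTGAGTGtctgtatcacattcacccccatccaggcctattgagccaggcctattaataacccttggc
Pvalb upstream, chr15:78227811-78227962: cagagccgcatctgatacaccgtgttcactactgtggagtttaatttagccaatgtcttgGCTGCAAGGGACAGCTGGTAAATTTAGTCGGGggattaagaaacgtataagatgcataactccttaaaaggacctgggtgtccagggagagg
In the Casq1 and Pvalb lines capitals mark the bases that lay inside a peak of all 4 lists, in the Jph1 line they mark a sequence like the glucocorticoid response element (GRE), and the Ryr1 line lies wholly inside all 4 peaks and has no capitals. The shared stretch was 609 bp long at the Ryr1 intron, 131 bp at Casq1, 122 bp at Jph1, 69 bp at the Pvalb intron, 45 bp at the Pvalb promoter and 32 bp upstream of Pvalb. At the Ryr1 promoter, the seventh site, the peaks of the 4 lists were linked by overlap but no base lay in all 4.

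The GRE was searched as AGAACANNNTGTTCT on both strands of whole peaks. With at most 1 mismatch it was found in 0 of 36 GR fed peaks of the member windows, which allows a share of up to 9.74% (exact 95% binomial limit, counting error only), against 2.17% of all GR fed peaks. In GR starved it was found in 0 of 81, which allows up to 4.45%, against 0.712% of the list. It was also found in 0 of 48 LSD1 fed peaks (0.392% of the list) and 0 of 53 LSD1 starved peaks (0.0636%). With at most 2 mismatches, a setting chosen after the data were seen, 3 of 36 GR fed peaks held it, at Casq1, Trdn and Jph1, which was 8.33% against 9.75% of the list. In GR starved it was 1 of 81, or 1.23% against 4.33%. The match upstream of Jph1 was the only one of these inside a site of all 4 lists. At the other 6 such sites the closest match had 3 mismatches (Ryr1 promoter and Pvalb intron) or 4. No match says only that these letters were not in these peaks.

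The 10 genes are taken in the order of their roles.

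Ryr1 (chr7:29003340-29125151, minus strand) encodes the calcium release channel of the sarcoplasmic reticulum. Its window held 3 GR peaks in fed and 16 in starved muscle, and 4 and 5 LSD1 peaks. The strongest peak of all 4 lists was the same place, in an intron 1.14 kb downstream of the TSS, chr7:29123549-29124477. Its fold enrichment over input was 4.54 in GR fed, 3.83 in GR starved, 5.12 in LSD1 fed and 3.56 in LSD1 starved, with q-values of 6.11e-09, 3.99e-07, 6.16e-05 and 0.0256. For each protein the fed value was the higher.

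The promoter, taken as 1000 bp upstream to 100 bp downstream of a TSS, also had a peak of each list at Ryr1. These were weaker, with folds of 2.74 in GR fed, 3.12 in GR starved, 3.51 in LSD1 fed and 3.53 in LSD1 starved. Their q-values were 0.0446, 0.00189, 0.0593 and 0.0362 in the same order. Of the 20 GR and LSD1 sites in the Ryr1 window, 14 were called in GR starved alone, most of them in introns of the gene at folds between 2.49 and 3.21. Over all genes, whatever the length of their windows, 0.783% had as many GR starved peaks as Ryr1 or more. An H3K9me2 fed peak of fold 3.08 lay 0.129 kb upstream of the Ryr1 TSS.

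Cacna1s (chr1:136052811-136119822, plus strand) encodes the subunit that senses voltage. It had 2 GR peaks in fed and 13 in starved muscle, with 4 and 6 for LSD1. At the promoter the fold was 2.63 in GR starved, 4.21 in LSD1 fed and 3.9 in LSD1 starved, and GR fed had no promoter peak. An intron site 8.31 kb downstream was called at 3.35 and 2.84 for GR in fed and starved muscle and at 4.11 in LSD1 fed. No GR starved peak of Cacna1s exceeded a fold of 2.85. The strongest LSD1 starved peak, 49 bp in an intron, had a fold of 4.55 and a q-value of 0.00109 and was called in no other GR or LSD1 list.

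Cacnb1 (chr11:98001508-98022627, minus strand) encodes the cytosolic beta subunit that carries the channel to the membrane. It had 2 and 4 GR peaks and 2 and 3 LSD1 peaks in fed and starved muscle. No GR or LSD1 peak had its midpoint in the promoter, but a GR starved peak of fold 3.33 (q-value 0.000249) reached into it. Only 1 site was called more than once. That site lay in the gene 12.6 kb downstream of the TSS, with folds of 2.94 in GR fed and 4.22 in LSD1 fed. Several peaks of the Cacnb1 window lay nearer to the start of a neighbour. The strongest GR starved peak, fold 3.46, was nearest to Rpl19, a ribosomal protein gene, and 13.5 kb upstream of Cacnb1.

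Stac3 (chr10:127501686-127508818, plus strand) encodes an adaptor that the voltage sensor needs in skeletal muscle. GR had 3 peaks in each condition, and LSD1 had 3 in fed and 4 in starved muscle. Its promoter had a peak in GR fed alone, with a fold of 2.59 and a q-value of 0.0459. The strongest GR fed peak lay 7.82 kb downstream of the TSS, past the end of the gene and nearest to Ndufa4l2, at 3.5, with 2.54 at the same place in GR starved. All 3 LSD1 fed peaks lay nearer to Ndufa4l2 or Shmt2 than to Stac3.

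Casq1 (chr1:172209894-172219895, minus strand) encodes the calcium-binding protein of the fast-fibre store. GR had 4 peaks in the fed and 5 in the starved list here, and LSD1 had 5 and 3. The intron site 2.81 kb downstream of the TSS was called in all 4 lists. Its fold was 3.07 in GR fed, 3.74 in GR starved, 5.46 in LSD1 fed and 3.57 in LSD1 starved, so that here GR was higher in starved and LSD1 higher in fed muscle. The promoter had a GR fed peak of fold 3.31 and LSD1 fed peaks of 4.01 and 3.99, and none of the starved lists had a peak midpoint there. A GR starved peak of fold 2.52 reached into it.

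Casq2 (chr3:102086415-102146514, plus strand) encodes the calsequestrin of slow fibres and heart. It had the fewest peaks, 1 for GR and 1 for LSD1 in fed muscle, and 4 and 2 in starved muscle. The GR fed peak lay at the promoter with a fold of 3.18, and GR starved had 2.65 there. An LSD1 fed peak of fold 4.15 lay in an intron, next to but not overlapping an LSD1 starved peak of 3.26. No Casq2 site carried GR and LSD1 peaks together.

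Trdn (chr10:33083483-33476709, plus strand) encodes triadin, which links calsequestrin to the release channel. In the longest window GR had 5 peaks in the fed and 3 in the starved list, and LSD1 had 2 and 13. Per 100 kb this was 1.18 and 0.709 for GR and 0.473 and 3.07 for LSD1. Trdn was the only member with fewer GR peaks in starved than in fed muscle. A GR fed peak of fold 3.37 (q-value 0.00179) covered the TSS, with its midpoint 0.133 kb downstream, outside the promoter. The strongest GR fed peak, 3.82 (q-value 8.96e-05), lay in an intron 9.03 kb downstream. All 13 LSD1 starved peaks lay over 60 kb downstream of the TSS and none coincided with a peak of the other 3 lists. Their highest fold was 5.03 (q-value 0.000285), which was also the highest LSD1 starved fold of any member, and it lay inside the non-coding gene D830005E20Rik as well as Trdn.

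Jph1 (chr1:16994938-17097889, minus strand) encodes the main skeletal junctophilin. GR had 6 peaks in the fed and 9 in the starved list, and LSD1 had 8 in each. The site 22.7 kb upstream of the TSS, outside all curated transcripts, had folds of 4.62 in GR fed, 3.48 in GR starved, 4.53 in LSD1 fed and 3.54 in LSD1 starved. A site around the first coding exon had 4.68 and 3.41 for GR in fed and starved muscle and 5.46 for LSD1 in fed muscle, and LSD1 starved had no peak there. A site near the other end of the gene, in the exon of the 3' untranslated region, was called at 4.66 and 2.97 for GR in fed and starved muscle and at 4.05 in LSD1 fed. Peak midpoints in the promoter itself came from the fed lists, at 2.82 for GR and 4.23 for LSD1. The GR starved peak of 3.41 also covered the TSS, with its midpoint further downstream.

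One intron site of Jph1 was found in GR starved alone at a fold of 4.29, the highest GR starved fold of all members, with a q-value of 4.22e-08. It lay 43.4 kb downstream of the TSS.

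Jph2 (chr2:163336242-163397993, minus strand) encodes the junctophilin best known from heart muscle. GR had 6 peaks in the fed and 17 in the starved list, and LSD1 had 10 and 5. As many GR starved peaks or more were found at 0.623% of all genes, and as many LSD1 fed peaks or more at 0.432%. An intron site 13.3 kb downstream had folds of 4.67 and 3.47 for GR in fed and starved muscle and 3.84 in LSD1 fed. At the promoter GR starved had 3.09, LSD1 fed 4.27 and LSD1 starved 3.1, the last at 0.944 kb upstream and away from the others. A GR fed peak of 3.38 covered the TSS as well, with its midpoint just past the downstream limit of the promoter. Of its 23 sites, 10 were called in GR starved alone.

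Pvalb (chr15:78191112-78206400, minus strand) encodes the buffer that speeds relaxation of fast fibres. GR had 4 peaks in the fed and 7 in the starved list, and LSD1 had 9 and 4. The window held 3 of the 7 sites of all 4 lists, more than any other member. The site 21.4 kb upstream of the TSS had the highest GR fed fold of all members, 6.31, with 4.16 in GR starved, 4.05 in LSD1 fed and 3.25 in LSD1 starved. Its nearest start was that of Ncf4, a subunit of the phagocyte oxidase. The intron site, 8.84 kb downstream, had 6.02, 4.04, 4.31 and 3.95 in the same order. These were the only GR fed peaks of the members above a fold of 5. GR fed q-values were 3.93e-17 upstream and 2.4e-17 in the intron, and LSD1 starved q-values were 0.0748 and 0.00808.

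The promoter of Pvalb was called in all 4 lists at lower folds, 2.71 in GR fed, 2.48 in GR starved, 3.82 in LSD1 fed and 3.56 in LSD1 starved. A further site 9.1 kb upstream was called by GR alone, at 3.73 in fed and 3.75 in starved muscle, and an LSD1 fed peak of 4.99 lay 5.07 kb upstream without GR. As many LSD1 fed peaks as at Pvalb or more were found at 0.703% of all genes.

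**Figure D2:**
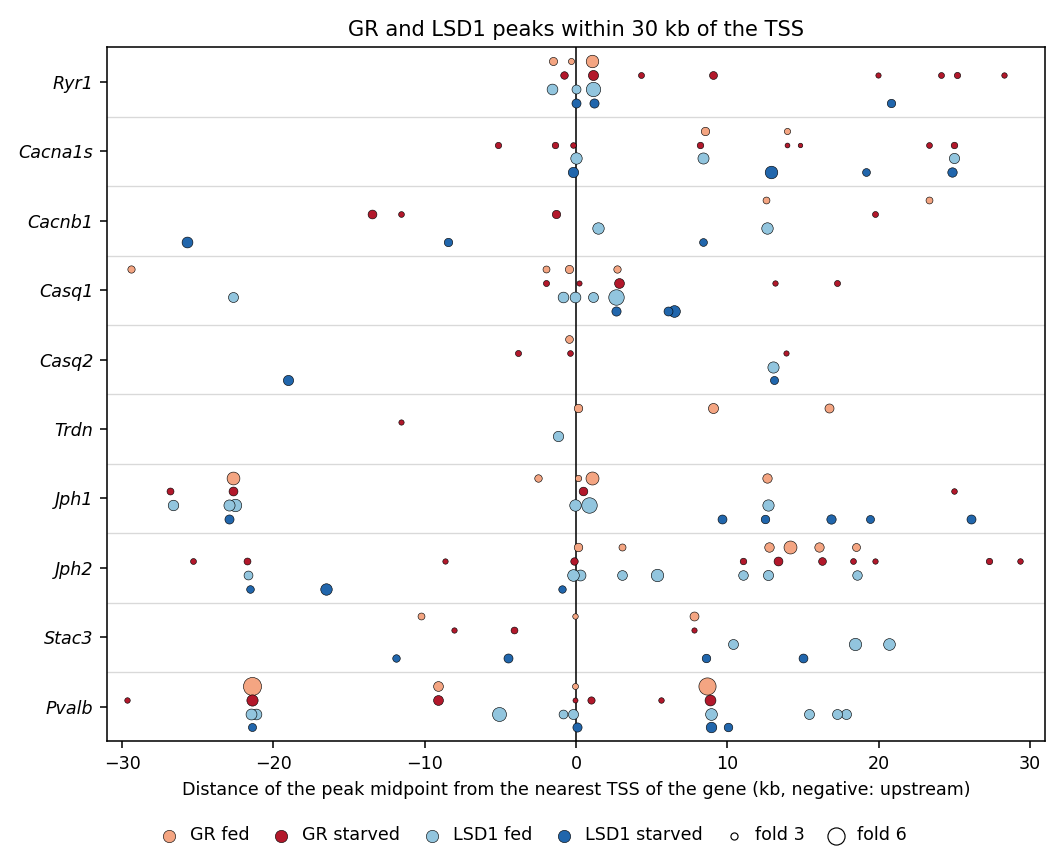
GR and LSD1 peaks of the 10 genes (rows) by the distance of the peak midpoint from the nearest TSS of the gene (x axis, kb, negative upstream), coloured by list, with larger points for a higher fold enrichment. The largest points are the GR fed peaks of Pvalb at 21.4 kb upstream and in its intron, with folds of 6.31 and 6.02, and peaks beyond 30 kb are not drawn.

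Pvalb stood apart from the other members in the histone marks. It had no peak in any of the H3K9me1 and H3K9me2 lists, whereas each of the other 9 members had H3K9me2 fed peaks, between 5 at Casq2 and 29 at Trdn. Over all genes, 4.51% had no H3K9me2 fed peak. Of the 9004 genes with peaks in both GR and both LSD1 lists, 25 had no H3K9me2 fed peak and 8 had no peak of either mark. Pvalb was singled out after its values were seen.

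**Figure D3:**
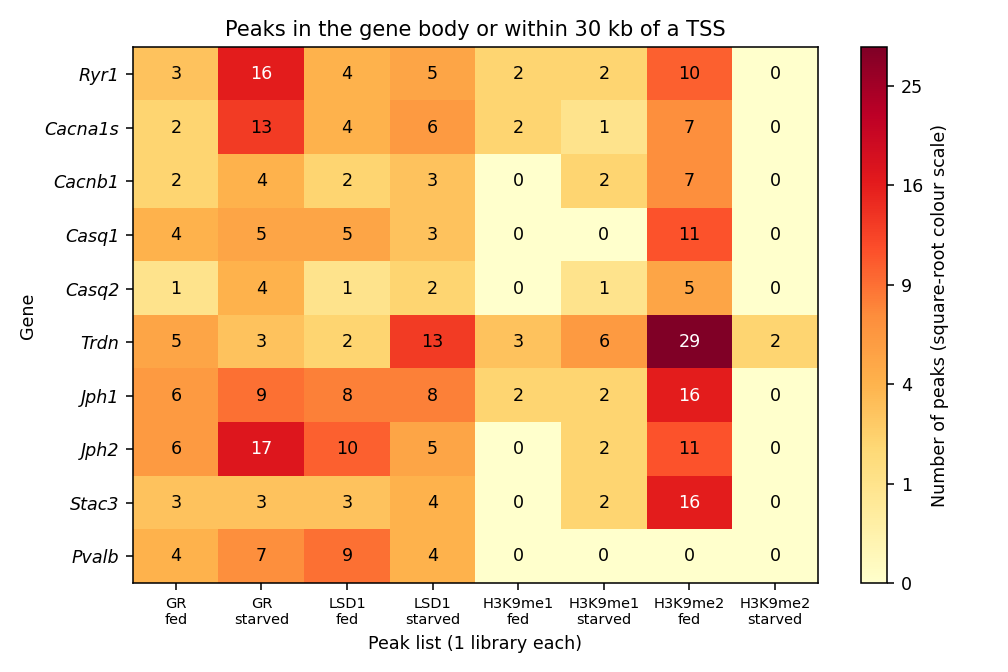
Number of peaks in the window of each gene (rows) in each of the 8 lists (columns, 1 library each), with darker colour for a higher number. Ryr1, Cacna1s and Jph2 have 16, 13 and 17 GR starved peaks, Trdn has 13 LSD1 starved and 29 H3K9me2 fed peaks, and Pvalb has 0 in the 4 columns of the histone marks.

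In the marks, the member windows held 9 H3K9me1 peaks in fed and 18 in starved muscle, and 112 and 2 for H3K9me2. Over the whole genome the H3K9me1 lists held 14178 peaks in fed and 38023 in starved muscle, 2.68 times as many, against 2 times at the members. The H3K9me2 lists held 171402 and 6624 peaks, so the members went the same way as their lists. The libraries of each mark differed in the code the labels give them as well as in feeding, and these cannot be told apart. The strongest H3K9me1 peaks were 51 bp in a Jph1 intron at 6.61 in starved muscle and 49 bp in a Cacna1s intron at 5.26 in fed muscle. None of the 9 H3K9me1 fed peaks overlapped an H3K9me1 starved peak (exact 95% interval 0 to 33.6%). Over the whole H3K9me1 fed list the share was 2.79%, inside that interval. The strongest H3K9me2 fed peaks had folds of 4.68, in an intron of R3hdm2 beside Stac3, and 4.51, upstream of Jph1. Both H3K9me2 starved peaks lay in Trdn introns, at 3.99 and 3.73. An H3K9me2 fed peak overlapped 4 of 36 GR fed peaks (11.1%, exact 95% interval 3.11 to 26.1) and 4 of 48 LSD1 fed peaks (8.33%, 2.32 to 20), against 16.5% and 16.8% over the whole lists, which lay inside both intervals.

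Promoters were compared across the members. A GR fed peak midpoint lay in the promoter of 6 of 10 members, Ryr1, Casq1, Casq2, Jph1, Stac3 and Pvalb, against 13.4% of all genes. GR starved had 5, Ryr1, Cacna1s, Casq2, Jph2 and Pvalb, against 23.3%. LSD1 fed had 6, Ryr1, Cacna1s, Casq1, Jph1, Jph2 and Pvalb, against 22.4%, and LSD1 starved 4, Ryr1, Cacna1s, Jph2 and Pvalb, against 16.1%. GR fed and LSD1 fed were both at the promoters of Ryr1, Casq1, Jph1 and Pvalb, 4 of 10 against 9.33% of all genes. H3K9me2 fed lay at the promoters of 3, Ryr1, Cacnb1 and Stac3, against 22.3%. By midpoints, Ryr1 and Pvalb had all 4 GR and LSD1 lists at the promoter. When any base of a peak in the promoter counted, Jph2 had all 4 as well, and the counts were 8 members in GR fed (16% of all genes), 8 in GR starved (28.9%), 6 in LSD1 fed (25.4%) and 4 in LSD1 starved (18.2%). Among peaks with q-values up to 0.01, midpoints of GR were left at 2 promoters in fed (8.09% of all genes) and 2 in starved muscle (11.3%), and LSD1 at 4 (10.4%) and 1 (2.99%).

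Most peaks lay elsewhere. Introns held 19 of 36 GR peaks in fed and 53 of 81 in starved muscle, and 20 of 48 and 36 of 53 LSD1 peaks. Intergenic sequence held 7 and 15 GR peaks and 12 and 5 LSD1 peaks. No whole-list share stands beside these counts, and the windows include the gene bodies, which at Trdn were 393 of 423 kb.

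The peaks of the 4 lists merged into 155 GR and LSD1 sites. Of these, 7 were called in all 4 lists, 11 in 3, 12 in 2 and 125 in 1. The sites of 1 list were mostly of starved muscle, 55 from GR starved and 42 from LSD1 starved, against 19 from LSD1 fed and 9 from GR fed. The starved lists were also the longer ones over the whole genome. No share over all genes stands beside these site counts, so they are not read as particular to the members. Cacnb1, Casq2, Trdn and Stac3 had no site of 3 or more lists, and Jph2 had 5 of 3.

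**Figure D4:**
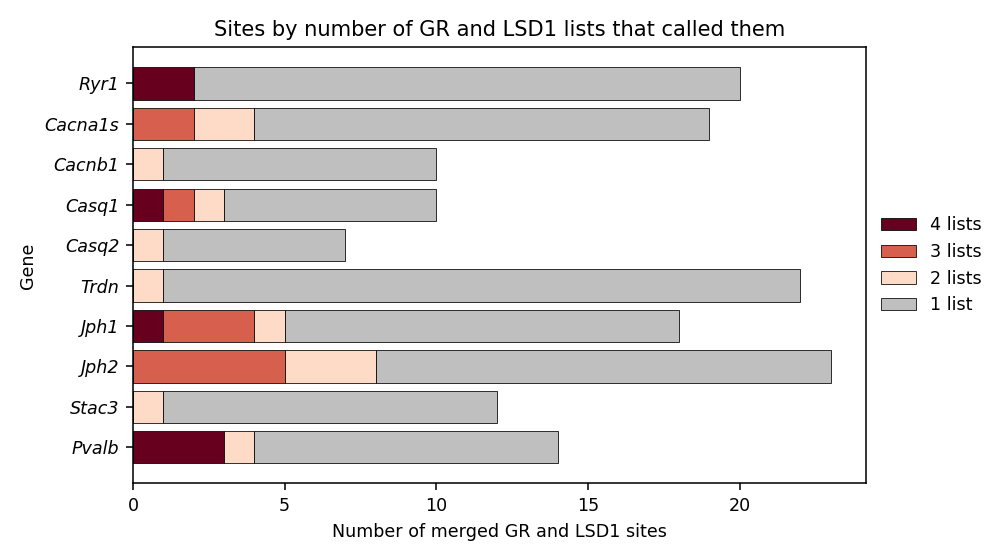
Number of merged GR and LSD1 sites (x axis) in the window of each gene (y axis), split by how many of the 4 GR and LSD1 lists called the site. Pvalb has 3 and Ryr1 2 sites of all 4 lists, Casq1 and Jph1 1 each, and grey bars for sites of 1 list make up 125 of 155.

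With all peaks counted, GR and LSD1 often shared a place in fed muscle. Of the GR fed peaks, 19 of 36 (52.8%, exact 95% interval 35.5 to 69.6) overlapped an LSD1 fed peak by at least 1 bp, against 48.3% over the whole GR fed list. In starved muscle, 10 of 81 GR peaks (12.3%, 6.08 to 21.5) overlapped an LSD1 starved peak, against 14.7% over the list. The whole-list shares lay inside both intervals. Between conditions, 23 of 36 GR fed peaks (63.9%, 46.2 to 79.2) overlapped a GR starved peak (65.8% over the list), and 11 of 48 LSD1 fed peaks (22.9%, 12 to 37.3) an LSD1 starved peak (23.1%). Taken from the starved side, 11 of 53 LSD1 starved peaks (20.8%, 10.8 to 34.1) overlapped an LSD1 fed peak, against 5.85% over the list.

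Where GR was called in both conditions, its enrichment was mostly higher in fed muscle. Over 23 pairs of overlapping GR peaks the fed fold was higher in 19, with medians of 3.38 in fed and 3.12 in starved. For LSD1 it was higher in 10 of 11 pairs, with medians of 4.12 and 3.54. Over the whole lists the fed fold was higher in 78.7% of GR pairs and 87.3% of LSD1 pairs, the same direction as at these genes. Among the pairs, GR starved exceeded GR fed at the Casq1 intron, 3.74 against 3.07, and 9.1 kb upstream of Pvalb, 3.75 against 3.73. It also did so at the GR fed promoter peaks of Ryr1, 3.12 against 2.74, and Jph1, 3.41 against 2.82. At Ryr1 and Jph1, however, the same starved peak also overlapped a stronger GR fed peak, of 3.28 and 4.68. For these merged sites the fed value was therefore the higher.

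**Figure D5:**
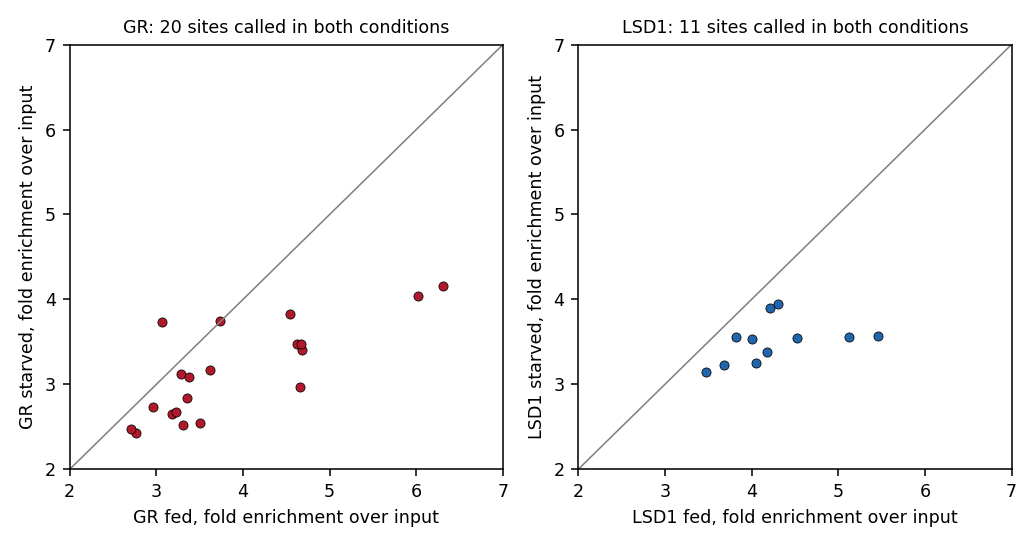
Fold enrichment over input in fed (x axis) and starved muscle (y axis) at member sites called in both conditions, for GR (left, 20 sites) and LSD1 (right, 11 sites), with the line of equal values. Most points lie below the line, 18 of 20 for GR and 11 of 11 for LSD1, where the highest peak of each site is plotted.

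The count of peaks went the other way. GR had 36 peaks in the member windows in fed muscle and 81 after starvation, 2.25 times as many, and LSD1 had 48 and 53, 1.1 times as many. Over the whole lists the ratios were 2.68 and 3.99, so the excess of starved peaks at the members was below that of both lists. No interval was computed for these ratios, and the gap was small for GR. When both lists were cut to equal length by fold enrichment, the GR ratio was 0.861 and the LSD1 ratio 0.188. At a q-value of 0.01 or less the ratios were 1.13 and 0.375. The direction of the count therefore depended on how many peaks of each list were kept.

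Recognition sequences of muscle factors were searched in the same peaks. The motif of MEF2, a factor of the muscle gene programme, was found in 0 of 36 GR fed peaks (2.61% of the list), 2 of 81 GR starved peaks (2.47%, 1.27% of the list), 2 of 48 LSD1 fed peaks (4.17%, 1.5%) and 1 of 53 LSD1 starved peaks (1.89%, 0.204%). Its 3 places are shown with the motif in capitals, since 1 of them lay in a Jph2 intron under 3 lists.
Jph2 intron, 34.5 kb downstream of the TSS, chr2:163363333-163363452: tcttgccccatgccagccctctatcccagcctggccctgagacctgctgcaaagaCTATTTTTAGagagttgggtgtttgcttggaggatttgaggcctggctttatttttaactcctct
Jph2 intron, 5.35 kb downstream, chr2:163392590-163392655: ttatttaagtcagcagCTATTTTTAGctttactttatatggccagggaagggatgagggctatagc
Upstream of Cacnb1, nearest to Rpl19, chr11:98036051-98036137: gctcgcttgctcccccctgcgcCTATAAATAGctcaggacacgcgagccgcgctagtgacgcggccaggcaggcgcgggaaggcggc
The first was called at 3.16 in GR starved, 3.68 in LSD1 fed and 3.23 in LSD1 starved. The second was the strongest LSD1 fed peak of Jph2, at 4.51. The third was the strongest GR starved peak in the Cacnb1 window, at 3.46. The motif of NRF1, a factor of mitochondrial gene promoters, was searched as GCGCNNGCGC on both strands. It was found in 0 of 36 GR fed peaks (4.56% of the list), 1 of 81 GR starved peaks (3.58%), 1 of 48 LSD1 fed peaks (5.73%) and 1 of 53 LSD1 starved peaks (0.834%). All of these lay at neighbours of the members, the starved ones at the Oser1 start 21.7 kb upstream of Jph2 and the LSD1 fed one at the Shmt2 start beside Stac3.

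A list of 36 other genes of coupling and calcium cycling, also chosen with earlier results known, was set beside the members. Of these, 28 had a GR fed peak (43.1% of all genes), 32 GR starved (66.5%), 26 LSD1 fed (51.1%) and 35 LSD1 starved (83.7%), and 23 had all 4 (34.4%). H3K9me2 fed peaks were found at 36 of 36 (95.5%). GR fed and LSD1 fed peaks were both at the promoters of 6 of 36 (9.33% of all genes), among them S100a1, Jsrp1, Hrc, Orai1 (the store-operated channel) and Dmpk. The strongest GR fed peaks of this list were at Mrln, Atp2a1 and Speg. Mrln encodes myoregulin, an inhibitor of the calcium pump that Atp2a1 encodes. The highest GR fold in the Mrln window was 6.86 in the fed and 9.32 in the starved list. In the Atp2a1 window it was 6.38 and 8.51, and in the Speg window 5.45 and 7.67. Each of these was larger in the starved list. Over the 26 other genes with GR peaks in both conditions, the highest fold was larger in fed muscle at 12, larger in starved muscle at 13 and equal at 1. Among the members it was larger in fed muscle at 8 of 10, Pvalb with 6.31 and 4.16 among them, and larger in starved muscle at Cacnb1 and Casq1. No share over all genes stands beside these counts. The highest peaks of a gene could also lie at different places in fed and starved muscle, as at Jph1.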

How the data were processed

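ChIP-seq libraries of fed and starved mouse muscle were grouped by their labels (10 libraries, 8 peak lists and 2 inputs). Per the study's methods, reads were mapped to mm10 and broad peaks were called per library with MACS2 against input. The notes of the submitters name bcl2fastq 2.20.0.422. The deposited lists give a fold enrichment over input (a ratio), −log10 of a p-value, −log10 of a q-value and a score, all by the authors. The fold and the q-value were used here. The methods state a false discovery rate filter, but the deposited q-values reach beyond 0.01.

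Peaks were placed on 45756 curated RefSeq transcripts of GRCm38 with Python 3.11.15 and NumPy 2.4.6, and exact Clopper-Pearson intervals came from SciPy 1.17.1. Overlapping GR and LSD1 peaks were merged into sites. Window counts, overlaps and motif search were tested on simulated data. The members and the list of other genes were chosen with earlier results of these data known. Named were all members, for each member the highest-fold peak of every GR and LSD1 list and every promoter peak, the 2 highest peaks of each mark, and, of the other genes, those with GR fed and LSD1 fed promoter peaks and the 3 highest GR fed folds. An item that this rule names is not reported here. Read numbers were not analysed here. Alternatives were stricter q-values, other windows and overlaps, and lists of equal length by fold. Intervals cover counting error only.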

Additional observations from a re-analysis of the deposited data

How the results depend on the processing

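No paired analysis was possible because each group had 1 library, and for the same reason no library could be left out. Of the counts of members with a peak, a q-value of 1e-05 or less left 4 members for GR in either condition, 0 for LSD1 and H3K9me2 in either condition, and 0 and 1 for H3K9me1 in fed and starved muscle, and a q-value of 0.01 or less left 5 in LSD1 starved, 5 in H3K9me1 starved and 0 in H3K9me2 starved. Without the gene body, 2 members were left in H3K9me1 fed, 5 in H3K9me1 starved and 0 in H3K9me2 starved. The starved to fed ratio of GR peaks was 2.25 as reported, 1.13 with a q-value of 0.01, 0.857 with 1e-05 and 0.861 with lists of equal length. For LSD1 it was 1.1, then 0.375 at a q-value of 0.01 or less, 0.78 without the gene body and 0.188 with equal lists, and 1e-05 left no peak to form it. For H3K9me1 it was 2, then 3.5 without the gene body and 0.889 with equal lists. For H3K9me2 it was 0.0179, then 0 with the q-value of 0.01, 0 without the gene body and 0.667 with equal lists. With both lists at a q-value of 0.01 or less, 26.1% of GR fed peaks overlapped LSD1 fed and 3.85% of GR starved peaks overlapped LSD1 starved. Promoter peaks at a q-value of 0.01 or less were found at 2 members for GR in either condition and at 1 in LSD1 starved, and with any base of the peak in the promoter at 8 in GR starved. The cause of these changes was not tested, beyond the smaller number of peaks that a stricter list holds. The other 72 values computed under an alternative kept within 1.5 times the reported count or within the interval of the share. Depth was unknown, so an absent peak may be one that was not detectable.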
